A study of Mus musculus with 4 samples.

Results

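Heat shock proteins and their J-domain cochaperones were followed across 4 libraries of cells sorted from mouse adipose tissue. The members were the genes whose platform symbol begins with Hsp followed by a, b, d, e, h or a digit (which leaves out the proteoglycan gene Hspg2), with Dnaja, Dnajb or Dnajc, or with Bag and a digit, together with Hsf1 and Hsf2, and with a probe whose detection p fell under 0.01 on 1 array or more. Of 75 such genes with a probe named in the platform annotation, 54 had a detected probe and were members, out of 9975 genes tested in all. The other 21, among them Hspb3, Hspb7, Hspb9, Hspa1l, Hspa13, Hspa14 and Bag2, read at most 149.1 on any array and were not tested. No probe carried Hsf1, Hsp90ab1 or Dnajb11 as its single symbol, and those genes are not analysed here. Each gene was represented by its brightest tested probe, and values are the authors' normalized intensities on a linear scale, whose detection signal lay at 154. Levels are compared between libraries and not between genes, because probes differ in their response.

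The libraries were hybridized to Illumina Mouse-6 V2 BeadChips and comprised 2 labelled null GFP+ (libraries 1 and 3), 1 labelled het GFP+ (library 2) and 1 labelled null GFP- (library 3), from mice aged 2 months, labelled Black 6 and given in the methods as C57BL/6-129/SV. Null and het refer to Pparg, the gene of the adipogenic nuclear receptor, and GFP marks cells of the AdipoTrak line, in which a tTA cassette at the Pparg locus drives a TRE-H2B-GFP reporter, which the controls labelled het carry as well. The study's methods name Sox-PPARγ-LOF mice, in which Sox2-Cre deletes a floxed Pparg allele in the whole body, its results name AT-PPARγ-LOF mice, in which a TRE-Cre deletes it in the adipose lineage, and the labels do not say which was used. Sorting followed digestion of the fat with shaking at body temperature, and nothing in the labels says which mice each library came from, so p-values measure the spread between these libraries only. Pparg, the targeted gene, read 3217 (library 1) and 2479 (library 3) under the null GFP+ label, 188 under het GFP+ and 209 under null GFP-, which runs against the genotype labels, and where its probe lies relative to the deleted part is not known here. Directions are therefore by label throughout, and null GFP+, het GFP+ and null GFP- name libraries as labelled.

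Heat shock proteins are chaperones that hold or refold unfolded proteins. Members of the Hsp70 family bind short hydrophobic stretches in a cycle driven by ATP. J-domain proteins deliver the client and trigger ATP hydrolysis, and nucleotide exchange factors of the Hsp110 and Bag families release it. Hsp90 acts later on kinases and nuclear receptors, the chaperonin of Hspd1 and Hspe1 folds proteins inside mitochondria, and small heat shock proteins keep unfolded proteins from aggregating. Under heat or proteotoxic stress the factor Hsf1 binds heat shock elements, inverted repeats of the triplet GAA, and raises the inducible members, whereas others are made constitutively. Tissue digestion and sorting are known to induce several of them in isolated cells.

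Heat shock elements are a sequence feature that the choice of members did not use, and the windows shown are those with a run of 3 units before the start and those of the stress-inducible Hspa1a and Hspb1. Promoters from RefSeq (GRCm38.p6, 250 bases before to 50 bases after each start) matched 44 of the 54 members. A run of 3 alternating units (GAANNTTCNNGAA, both strands) occurred in 4 of the 44, which is 9.09%, and in 0.662% of all 27025 genes with a promoter. These were Dnajb6, Hspd1, Hspe1 and Hsph1, the last with its run after the start. A pair of units (GAANNTTC or TTCNNGAA, each its own reverse complement, and part of every run of 3) occurred in 13 of the 44 members (29.5%) and in 17.0% of all genes. In these windows each pair is in capitals, and sequences read 5′ to 3′ on the gene's own strand.
Hspe1: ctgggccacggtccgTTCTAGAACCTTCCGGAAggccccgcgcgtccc
Hspd1: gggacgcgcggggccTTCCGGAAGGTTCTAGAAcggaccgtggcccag
Dnajb6: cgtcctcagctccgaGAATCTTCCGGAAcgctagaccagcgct
Hspa1a: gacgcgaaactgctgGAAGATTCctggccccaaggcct
Hspb1: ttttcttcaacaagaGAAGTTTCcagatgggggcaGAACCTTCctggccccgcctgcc
The Hspe1 and Hspd1 windows are both strands of a single site (chr1:55088044-55088091, plus strand for Hspe1 and minus strand for Hspd1), which lies 89 to 72 bases before the Hspe1 start and 144 to 127 bases before the Hspd1 start. Hspd1 and Hspe1 are known to share a promoter. The Dnajb6 window is at chr5:29735837-29735879 (plus strand) and the Hspb1 window, with 2 pairs, at chr5:135887787-135887844 (plus strand). For Hspa1a the window is at chr17:34972238-34972275 (minus strand). Hspa1b carries the same window at chr17:34959320-34959357 (minus strand), and the 250 bases upstream of these neighbouring genes were identical at 247 positions. A match is a description of letters and not evidence of binding.

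Of the 54 members, none differed past the test between the sorted populations. Comparing libraries by label, 0 members were higher in null GFP+ than in het GFP+ and 0 were lower in limma, a moderated linear model fitted to all 17379 probes tested (threshold, an adjusted p of 0.05), against 1.3% of all 9975 genes higher and 2.63% lower. At an unadjusted p under 0.05 from limma, 4 members passed (7.41%, against 16.9% of all genes), and by the t-test of the study's methods, with 1 degree of freedom, 0 members and 0% of all genes passed after adjustment. The size and p threshold of the study's methods, over 2-fold at an unadjusted p under 0.05, was applied with p from limma and not from their t-test. By it 1 member was higher (Hspa4) and 2 were lower (Hspa12b and Hspb2), where 5.18% of all genes were higher and 6.33% lower. On the authors' values without background correction 0 members passed that threshold in either direction, where 2.9% of all genes were higher and 3.73% lower. The members' median log2 difference was 0.05, as was that of all genes (0.05). For 6 members, among them Hspa4 in het GFP+, every library of a group read under the detection signal. Over the other 48 the differences ran from -1.03 (Hspb2) to 0.88 (Bag4). Hspb2 is counted among these 48 although null GFP+ library 1 read 145, under the detection signal. Its difference was -0.50 on the authors' values without background correction.

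The same held against the library labelled null GFP-. There 0 members were higher and 0 lower at an adjusted p under 0.05 from limma, against 1.31% and 2.66% of all genes, and 7 members (13.0%) had an unadjusted p under 0.05, against 16.2% of all genes. By the methods' t-test 0 members and 0% of all genes passed after adjustment. Over 2-fold at an unadjusted p under 0.05, 3 members were higher (Dnajc1, Hspa1b and Hspb1) and 2 were lower (Hspa12b and Hspa4l), where 4.9% and 7.12% of all genes were. Of these, Dnajc1 and Hspa4l were not well above background in a group. The median member differed by 0.07 on the log2 scale (0.02 over all genes), and over the 49 members measured in both groups the range was -1.29 (Hspa12b) to 1.42 (Hspb1). Both comparisons use the same libraries labelled null GFP+. The het GFP+ and null GFP- arrays were also the most alike pair, with 621 probes over 2-fold apart, against 806 between the null GFP+ arrays. The comparisons are thus not independent.

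**Figure D1:**
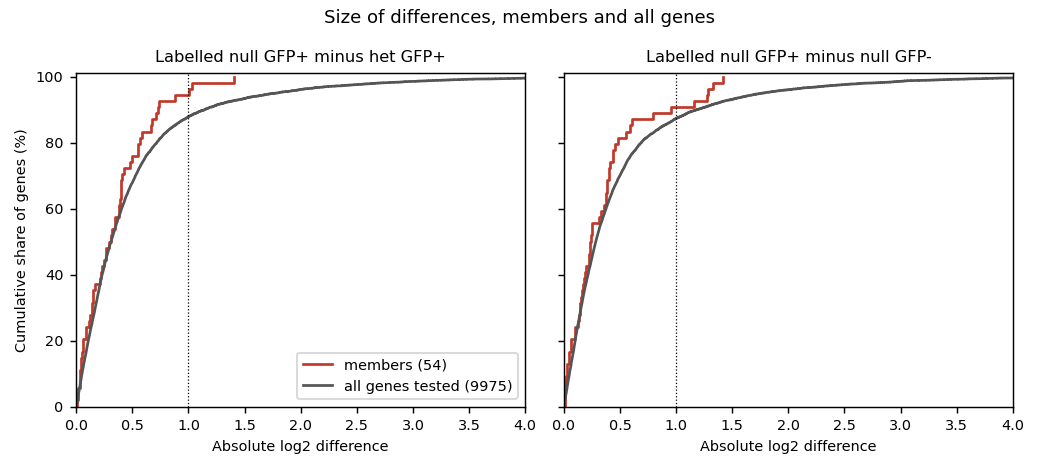
Cumulative share of genes (vertical axis, percent) by absolute log2 difference (horizontal axis, which ends at 4) for the 54 members and for all 9975 genes tested, with libraries labelled null GFP+ set against het GFP+ (left) and null GFP- (right). Past the dotted line at a log2 difference of 1 lay 5.56% of members and 12.2% of all genes on the left, and 9.26% and 12.7% on the right.

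The number of arrays limited what could be detected. With 2, 1 and 1 libraries the fit has 1 residual degree of freedom, and the median half-width of a member's 95% interval was 0.74 on the log2 scale. For 22 of the 54 members the interval against the library labelled het GFP+ lay wholly within 2-fold either way, and for 26 it did so against the library labelled null GFP-. For the remaining 32 and 28 members, the interval reached past 2-fold in at least 1 direction. Between the libraries labelled null GFP+, 0 members differed by over 2-fold and the median absolute log2 difference was 0.25, where 3.95% of all genes differed by that much and the median was 0.24. Both libraries labelled null GFP+ read above the library labelled het GFP+ for 24 members (44.4%) and below it for 15 (27.8%), against 42.7% and 34.0% of all genes. They read above the library labelled null GFP- for 26 members (48.1%) and below it for 15 (27.8%), against 39.8% and 34.9% of all genes.

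**Figure D2:**
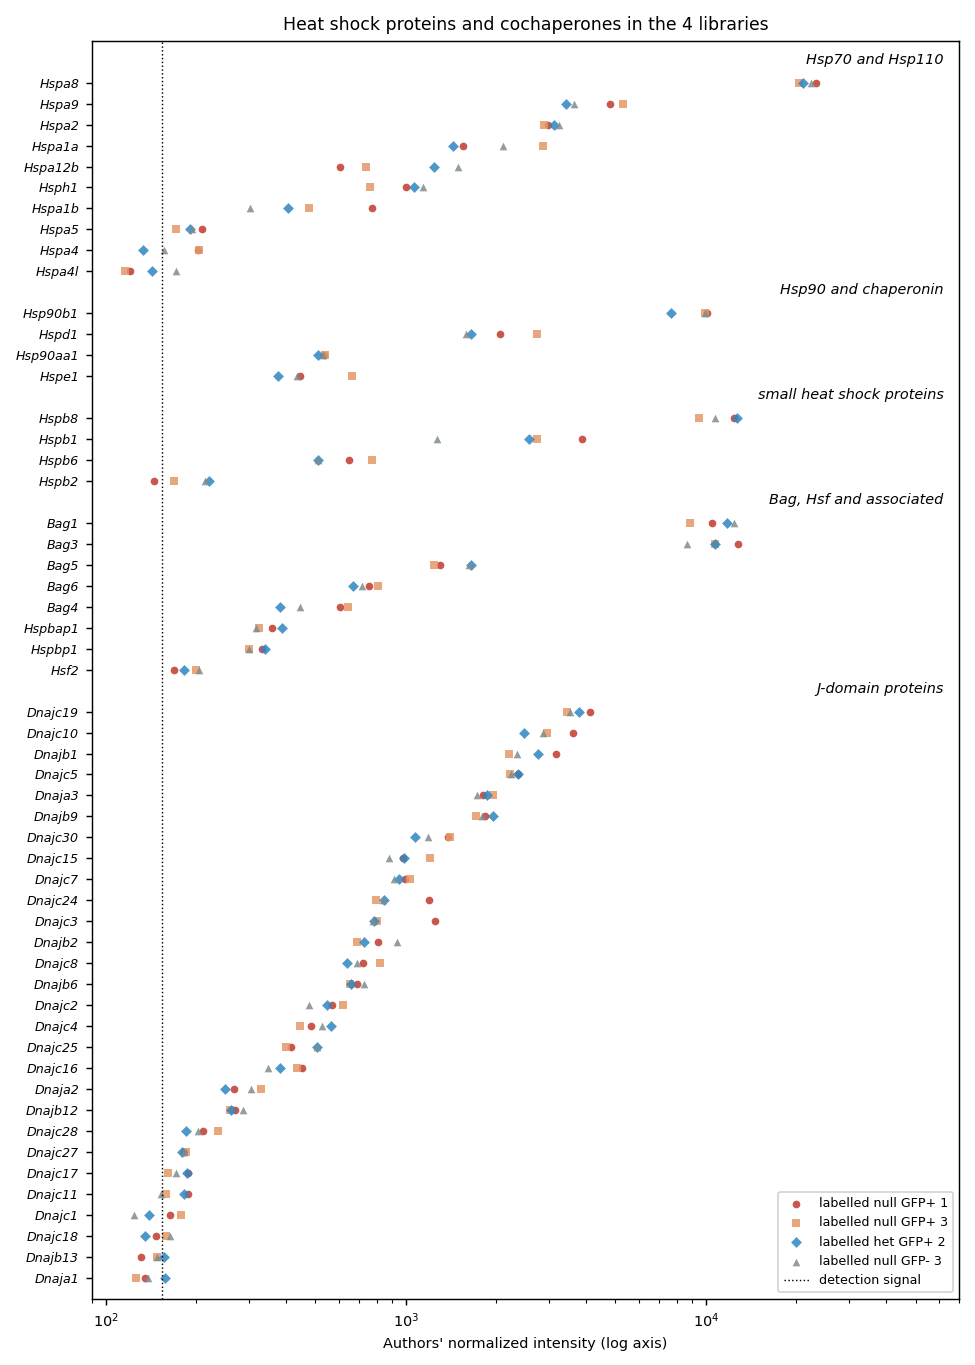
Authors' normalized intensity (horizontal log axis) of each of the 54 members, by family, in the 4 libraries, 1 point per library. The dotted line marks the detection signal of 154, and for most genes the points of all 4 libraries lie close together, with 46 members above the line in every library.

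Among the Hsp70 genes, Hspa8, Hspa2 and Hspa5 had log2 differences of 0.05, -0.09 and -0.04 against het GFP+ on their brightest probes. Hspa8, the constitutive cytosolic Hsp70, read 23265 (library 1) and 20480.5 (library 3) under the null GFP+ label, 21115 under het GFP+ and 22499 under null GFP-. Its log2 difference, labelled null GFP+ minus het GFP+, was 0.05 (standard error 0.28, 95% interval -0.67 to 0.77, adjusted p = 0.964 from limma). A further probe of Hspa8 read 8029.9 and 3208 in null GFP+, 6591 in het GFP+ and 4546 in null GFP-, more than a factor of 2 apart between the libraries labelled null GFP+, so that the groups overlapped. Hspa2, an Hsp70 known for its role in sperm development, read 2981.5 (library 1) and 2900.0 (library 3) under the null GFP+ label, 3117 under het GFP+ and 3236 under null GFP-, with the lowest values in the null GFP+ libraries and a log2 difference of -0.09 against het GFP+ (95% interval -0.78 to 0.61). Hspa5, the endoplasmic reticulum Hsp70 that keeps the unfolded protein sensors silent, read 210.3 (library 1) and 172 (library 3) under the null GFP+ label, 192 under het GFP+ and 193.5 under null GFP- on its 1 tested probe. The library labelled het GFP+ lay between the libraries labelled null GFP+ for Hspa8 and Hspa5.

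Hspa1a and Hspa1b, the stress-inducible Hsp70 genes, gave values that depended on the probe. The brightest Hspa1a probe read 1550.3 (library 1) and 2869 (library 3) under the null GFP+ label, 1434 under het GFP+ and 2112 under null GFP-. Both libraries numbered 3, null GFP+ and null GFP-, read above null GFP+ library 1 and het GFP+. The groups thus overlapped against null GFP-, with log2 differences of 0.58 against het GFP+ and -0.01 against null GFP- (standard error 0.45 in each). The labels do not say what the shared number stands for, and its part was not tested. The next Hspa1a probe ran in another order, with 549 (library 1) and 412 (library 3) under the null GFP+ label, 324 under het GFP+ and 268 under null GFP-. Hspa1b followed that order, with 775 (library 1) and 478 (library 3) under the null GFP+ label, 405 under het GFP+ and 304 under null GFP-, both libraries labelled null GFP+ lying above the other libraries. The log2 difference of Hspa1b was 1.28 (standard error 0.42, 95% interval 0.21 to 2.35, adjusted p = 0.24 from limma) against null GFP- and 0.71 against het GFP+ (adjusted p = 0.504). It was 0.87 against null GFP- without null GFP+ library 1 and 1.69 without library 3. The other tested Hspa1b probe read 202 and 246 in null GFP+, 162 in het GFP+ and 143 in null GFP-. The null GFP- library was not well above background there, which leaves a bound of at least 1.44-fold higher in null GFP+ (mean of the brighter group over the detection signal, on the authors' values). Such bounds, here and below, describe the readings and carry no sampling error. The coding regions of these neighbouring genes are nearly identical, so a probe may read both transcripts.

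**Figure D3:**
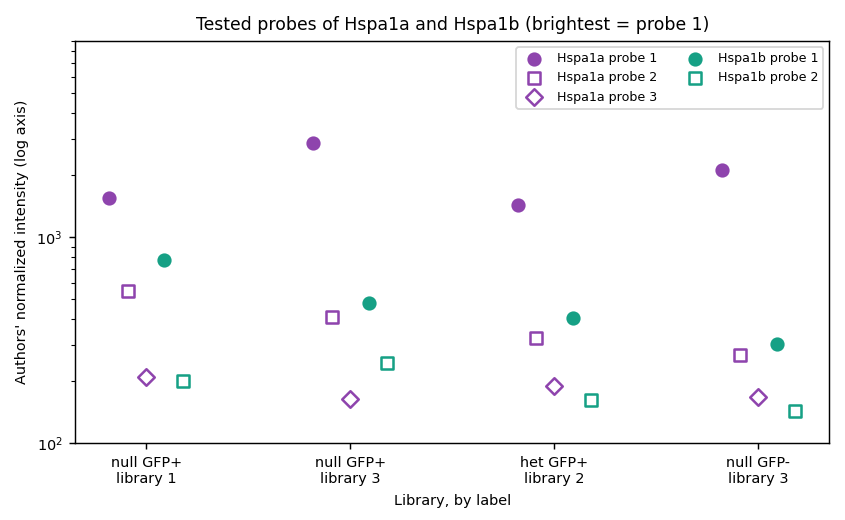
Authors' normalized intensity (vertical log axis) of the 3 tested Hspa1a probes and the 2 tested Hspa1b probes in each library (horizontal axis), 1 symbol per probe. The brightest Hspa1a probe peaks at 2869 in null GFP+ library 3, whereas Hspa1a probe 2 and Hspa1b probe 1 are highest in null GFP+ library 1, at 549 and 775.

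Hspa12b had the most negative differences of the Hsp70 genes. This atypical Hsp70, described in endothelial cells, read 603 (library 1) and 739 (library 3) under the null GFP+ label, 1242 under het GFP+ and 1494 under null GFP-, both null GFP+ libraries lying well below both other libraries. Its log2 difference was -1.29 (standard error 0.30, 95% interval -2.06 to -0.51, adjusted p = 0.116 from limma) against null GFP- and -1.001 (standard error 0.30, adjusted p = 0.208 from limma) against het GFP+. Without background correction the difference against null GFP- passed (-1.16, adjusted p = 0.0312 from limma), and it passed with a trended variance (adjusted p = 0.0474), over a range of adjusted p from 0.0312 to 0.691 across alternatives. Endothelial markers ran the other way in the same comparison, with 9 of 12 tested higher and 0 lower in null GFP+ libraries and a summed intensity of 15270 and 13810 in null GFP+, 8434 in het GFP+ and 6153 in null GFP-. Macrophage and dendritic cell markers were lower in 8 of 12 and summed to 8258 and 3757 in null GFP+, 31820 in het GFP+ and 29200 in null GFP-. Mast cell and neutrophil markers were lower in 13 of 15. They summed to 2315 and 2580 in null GFP+, 99480 in het GFP+ and 99590 in null GFP-. The part of these cells in the Hspa12b value was not tested, and in sorted populations fewer cells of a type and less RNA per cell cannot be told apart.

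The Hsp110 genes, nucleotide exchange factors of Hsp70, went different ways, close to the detection signal for 2 of the 3. Hspa4 read 204 (library 1) and 205 (library 3) under the null GFP+ label, 134 under het GFP+ and 157 under null GFP-. The null GFP+ libraries were close together and above both others, and since the library labelled het GFP+ was not well above background the null GFP+ level on the authors' values was at least 1.32-fold higher, against the detection signal (adjusted p = 0.0735 from limma). On the authors' values the adjusted p was 0.171, and with gene means over probes, a setting that tests fewer features, the adjusted p was 0.0403. Hspa4l read 121 (library 1) and 116.5 (library 3) under the null GFP+ label, 143 under het GFP+ and 171.5 under null GFP-, not well above background in any GFP+ library and at least 1.11-fold lower in null GFP+ than in null GFP- (adjusted p = 0.0872 from limma). Hsph1, the heat-inducible member, read 1005 (library 1) and 759.6 (library 3) under the null GFP+ label, 1068 under het GFP+ and 1147 under null GFP-. Its null GFP+ values lay below both other libraries, with a log2 difference of -0.32 against het GFP+ (95% interval -1.15 to 0.50).

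Hsp90 genes showed no difference past the test. Hsp90aa1, the inducible cytosolic Hsp90, read 535 (library 1) and 540.0 (library 3) under the null GFP+ label, 511 under het GFP+ and 532 under null GFP-. These values lay within a narrow band, and the log2 difference against het GFP+ was 0.09 (95% interval -0.61 to 0.78). Hsp90b1, its counterpart in the endoplasmic reticulum that folds integrins and Toll-like receptors, read 10118 (library 1) and 9962 (library 3) under the null GFP+ label, 7682 under het GFP+ and 9951 under null GFP-. Here the library labelled het GFP+ was low and the other libraries were level, at a log2 difference of 0.39 (standard error 0.27, 95% interval -0.30 to 1.09, adjusted p = 0.576 from limma) against het GFP+ and 0.01 against null GFP-.

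The 3 chaperones of the mitochondrial matrix were each above both other libraries in both null GFP+ libraries on their brightest probes, with log2 differences from 0.55 to 0.66 against het GFP+ that did not pass the test. Of all genes, 42.7% had both null GFP+ libraries above het GFP+ and 39.8% above null GFP-. The share of all genes above both at once was not computed. Hspa9, the Hsp70 of the mitochondrial import motor, read 4781 (library 1) and 5306 (library 3) under the null GFP+ label, 3426 under het GFP+ and 3625 under null GFP-. Its log2 difference was 0.57 (standard error 0.28, 95% interval -0.14 to 1.28, adjusted p = 0.424 from limma), and a second Hspa9 probe differed by 0.59. Hspd1, the barrel of the chaperonin, read 2062 (library 1) and 2737 (library 3) under the null GFP+ label, 1653 under het GFP+ and 1593 under null GFP-, for a log2 difference of 0.55 (adjusted p = 0.498 from limma). A dimmer Hspd1 probe went the other way at -0.57, with 516 and 267 in null GFP+, 497 in het GFP+ and 305.5 in null GFP-, so the probes of this gene disagree. Hspe1, the lid encoded from the same promoter, read 443 (library 1) and 665 (library 3) under the null GFP+ label, 376 under het GFP+ and 435 under null GFP-, at 0.66 (adjusted p = 0.499). Of the mitochondrial cochaperones, Dnaja3 had log2 differences of 0.01 against het GFP+ and 0.13 against null GFP-, and Dnajc15, an inner membrane J-domain protein, 0.14 and 0.33. Dnajc19, of the import motor, differed by -0.01 against het GFP+ on its brightest probe and by -0.69 and -0.85 on dimmer ones.

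Among the 4 small heat shock proteins, differences went in both directions. Hspb1, which binds actin and is induced by stress, read 3859 (library 1) and 2729 (library 3) under the null GFP+ label, 2574 under het GFP+ and 1271 under null GFP-. All GFP+ libraries were above the GFP- library. The log2 difference of Hspb1 was 1.42 (standard error 0.34, 95% interval 0.56 to 2.28, adjusted p = 0.118 from limma) for null GFP+ minus null GFP-, 1.07 for het GFP+ minus null GFP- (unadjusted p = 0.0391, adjusted p = 1 from limma) and 0.34 for null GFP+ minus het GFP+ (95% interval -0.52 to 1.21). Against null GFP- it passed on the authors' values (1.35, adjusted p = 0.0320 from limma) and with a trended variance (adjusted p = 0.0343), over a range of adjusted p from 0.0320 to 0.715 across alternatives. Hspb2, a muscle chaperone whose gene adjoins Cryab, read 145 (library 1) and 169 (library 3) under the null GFP+ label, 222 under het GFP+ and 215 under null GFP-, of which null GFP+ library 1 was not well above background. The null GFP+ libraries were the lower ones, at a log2 difference of -1.03 (standard error 0.34, 95% interval -1.90 to -0.15, adjusted p = 0.247 from limma), which was -0.50 on the authors' values without background correction. Cryab, outside the members, ran the same way, with 1319 (library 1) and 1150.2 (library 3) under the null GFP+ label, 1950.2 under het GFP+ and 1890.5 under null GFP-. Skeletal muscle markers were lower in 7 of 10 tested genes in null GFP+ against het GFP+, and their summed intensity was 1472 and 1792 in null GFP+, 7496 in het GFP+ and 1952 in null GFP-, so the null GFP- library was high for Hspb2 and low for the muscle markers. Their part in Hspb2 was not tested. Hspb6, a small heat shock protein of smooth and striated muscle, read 645 (library 1) and 773 (library 3) under the null GFP+ label, 512 under het GFP+ and 511 under null GFP-, at 0.55 against het GFP+ (adjusted p = 0.467). Mural markers were higher in null GFP+ in 1 of 9 genes against het GFP+, with a median log2 difference of 0.68, and 0.22 against null GFP-. They summed to 8833 and 12700 in null GFP+, 6320 in het GFP+ and 10300 in null GFP-. The null GFP- library thus lay between the null GFP+ libraries for these markers and below both for Hspb6. Their part in Hspb6 was not tested. Hspb8, which works with Bag3, read 12377 (library 1) and 9478 (library 3) under the null GFP+ label, 12708 under het GFP+ and 10758 under null GFP-. Both null GFP+ values lay below het GFP+ and on either side of null GFP-, at a log2 difference of -0.23 against het GFP+ (95% interval -1.03 to 0.56).

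**Figure D4:**
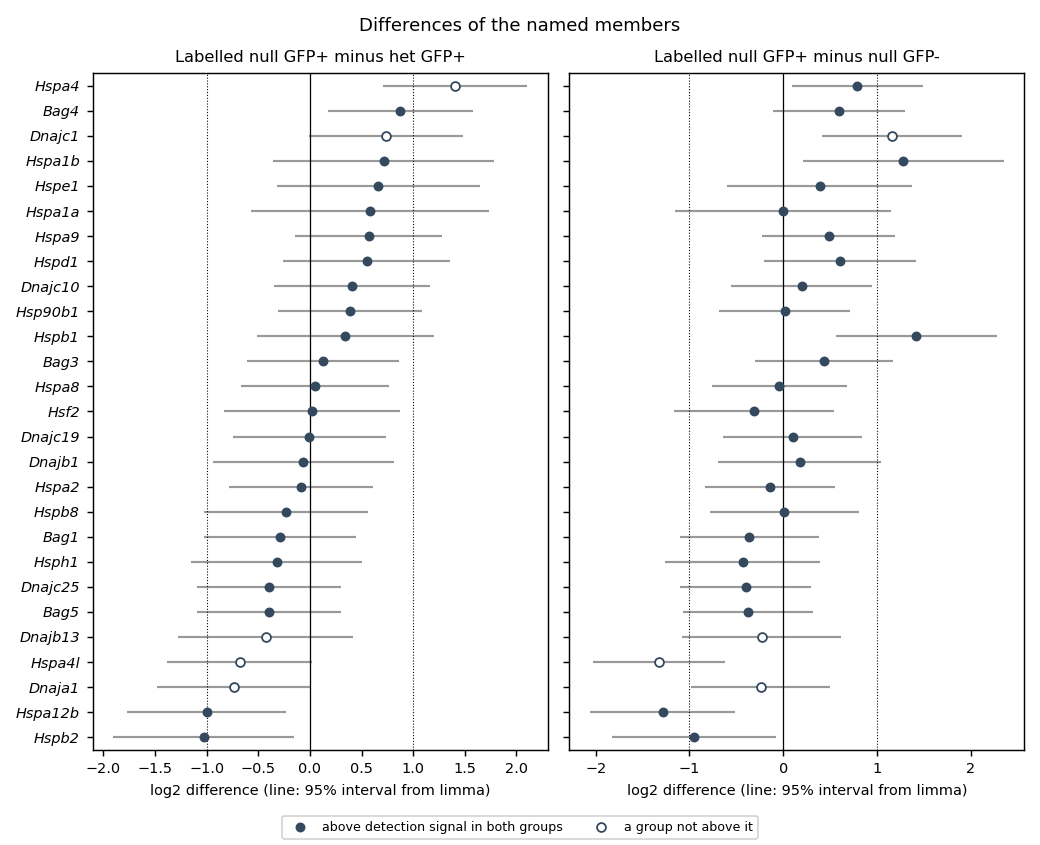
Fitted log2 differences (points) with 95% intervals from limma (lines) for the 27 named members, libraries labelled null GFP+ minus het GFP+ (left) and null GFP+ minus null GFP- (right). Dotted lines mark a log2 difference of 1 either way. Open points are members with every library of a group under the detection signal, and their position is not a measured size. Of the filled points, Hspb2 (-1.03) on the left and Hspb1 (1.42) on the right lie farthest from 0. For Hspb2, null GFP+ library 1 read under the detection signal.

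The Bag genes and other exchange factors numbered 6, and 3 had a positive and 3 a negative log2 difference against het GFP+. Bag4, which was first described as a silencer of death receptors, read 604 (library 1) and 642 (library 3) under the null GFP+ label, 381 under het GFP+ and 444 under null GFP-. Both null GFP+ libraries were above the others, and the log2 difference was 0.88 (standard error 0.27, 95% interval 0.17 to 1.58, adjusted p = 0.223 from limma) against het GFP+ and 0.59 against null GFP-. Bag3, an inducible cochaperone of Hspb8 in selective autophagy, read 12763.5 (library 1) and 10758 (library 3) under the null GFP+ label, 10758 under het GFP+ and 8676 under null GFP-. It was highest in null GFP+ library 1 and equal in null GFP+ library 3 and het GFP+, giving 0.12 against het GFP+ (95% interval -0.61 to 0.86). Bag1, which links Hsp70 to the proteasome, read 10529 (library 1) and 8866 (library 3) under the null GFP+ label, 11799 under het GFP+ and 12377 under null GFP-, and Bag5 read 1298 and 1246 in null GFP+, 1647 in het GFP+ and 1623 in null GFP-. Both were lower in each null GFP+ library than in the other libraries, at -0.29 and -0.40 against het GFP+ (adjusted p = 0.715 and 0.568 from limma).

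Of the 28 J-domain genes, 18 had a log2 difference above 0 against het GFP+, with a median of 0.05. Of all genes, 55.1% lay above 0 there, and their median was also 0.05. Over the 24 measured in both groups the differences ran from -0.40 (Dnajc25) to 0.50 (Dnajc28). Those of class A numbered 3, of class B 6 and of class C 19, and their medians were 0.01, -0.02 and 0.14. Dnajb1, the inducible partner of cytosolic Hsp70, read 3169 (library 1) and 2215 (library 3) under the null GFP+ label, 2762 under het GFP+ and 2359 under null GFP-. Null GFP+ library 1 was the highest and null GFP+ library 3 the lowest of the 4, so the groups overlapped (log2 difference -0.06, 95% interval -0.94 to 0.81). Dnajb6, whose promoter holds the run of 3 units, had values of 690.1 and 653 in null GFP+, 658 in het GFP+ and 729 in null GFP-, at 0.03 against het GFP+ and -0.14 against null GFP-. Its other probes disagreed in sign, at -0.16 and -0.47 against het GFP+ and 0.13 and 0.03 against null GFP-. Dnaja1, a cytosolic partner of Hsp70, read 135 (library 1) and 126 (library 3) under the null GFP+ label, 158 under het GFP+ and 139 under null GFP-. It was above the detection signal only in het GFP+, whose reading was 1.03-fold that signal. The 95% interval of null GFP+ minus het GFP+ included 0 (-1.48 to 0.006, adjusted p = 0.322 from limma). Dnajb13, known from sperm flagella, was likewise not well above background in null GFP+. Dnajc25 was lower in each null GFP+ library than in the others, with 414 and 399 in null GFP+, 506 in het GFP+ and 506.5 in null GFP- (log2 difference -0.40 against het GFP+).

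J-domain proteins of the endoplasmic reticulum gave values on both sides of 0. Dnajc1, which spans its membrane, read 164 (library 1) and 179 (library 3) under the null GFP+ label, 139 under het GFP+ and 125 under null GFP-. It was above the detection signal only in the null GFP+ libraries, whose mean was 1.11-fold that signal on the authors' values. The adjusted p from limma was 0.327 against het GFP+ (95% interval -0.013 to 1.48) and 0.135 against null GFP- (0.42 to 1.91). Dnajc10, a disulphide reductase, read 3623 (library 1) and 2961 (library 3) under the null GFP+ label, 2486 under het GFP+ and 2873 under null GFP-, at 0.41 against het GFP+ on its brightest probe and 0.42 on its other. Dnajb9, a target of the unfolded protein response, differed by -0.15 and Dnajc3, an inhibitor of kinases that phosphorylate eIF2α, by 0.38, with Dnajc3 at 1249 in null GFP+ library 1 and 802 in library 3. Hsf2, a heat shock factor that partners Hsf1, read 169 (library 1) and 200.4 (library 3) under the null GFP+ label, 182 under het GFP+ and 205.5 under null GFP-, with overlapping groups (log2 difference 0.02, 95% interval -0.83 to 0.87).

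Of the 16 members with several tested probes, all probes of a gene had the same sign against het GFP+ in 11 and against null GFP- in 9, and 0 of the 74 member probes passed at an adjusted p under 0.05 in either comparison. The members with a run of 3 units in the promoter had a median log2 difference of 0.29 against het GFP+ (4 members, from -0.32 to 0.66) and 0.13 against null GFP-, with 2 of the 4 above 0 there, and Hspd1 and Hspe1 among them share 1 site. The 40 members with a promoter and no run had 0.04 and 0.06. The stress-inducible Hspa1a, Hspa1b and Hspb1 are among them, so this split by exact letters does not separate inducible members from others.

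Between het GFP+ and null GFP-, with 1 library each and the spread taken from the null GFP+ libraries, 0 members were higher and 0 lower at an adjusted p under 0.05 from limma, as for all genes (0% each way). An unadjusted p under 0.05 was reached by 1 member, Hspb1, against 3.48% of all genes. The members' median was 0.00015 and 27 lay on each side of 0. Over the 47 members measured in both libraries the range ran from -0.59 (Hspa1a) to 1.07 (Hspb1), and these libraries also differ in both genotype and sort.

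Genes of the wider protein-folding network were described alongside. Of 26 tested cochaperones and targets of the Hsf1 network, 0 were higher and 0 lower between null GFP+ and het GFP+ in limma after adjustment, with a median log2 difference of 0.05. The differences were -0.71 for Cryab and -0.62 for Fkbp5, a glucocorticoid-induced cochaperone of Hsp90. Of 10 subunits of the cytosolic chaperonin and prefoldin, 0 passed, with a median of 0.25, including Vbp1 at 0.53 and Cct8 at 0.52. Of 21 genes of folding and the unfolded protein response, 0 passed, with a median of 0.00. Chac1, a target of Atf4, differed by 1.62 (adjusted p = 0.38) with 236 and 568 in null GFP+, 177.5 in het GFP+ and 134 in null GFP-, and Asns, an amino acid response gene, by 1.53 (adjusted p = 0.0693). Against null GFP-, 0 genes of these 3 lists passed.

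Immediate early genes are known to be induced when tissue is dissociated. Fos and Egr1, which were added after their values were seen, were bright in every library. Of the 26 listed genes, Fosl1, Ier5, Nr4a1, Btg2 and Cyr61 had no tested probe. Fos read 25191 (library 1) and 20276 (library 3) under the null GFP+ label, 19387 under het GFP+ and 19949 under null GFP-, and Egr1 37961 and 39868 in null GFP+, 32747 in het GFP+ and 35964 in null GFP-. Of 21 tested, 2 were higher and 0 lower in null GFP+ against het GFP+ (median 0.18) and 1, Egr2, was higher against null GFP-. Egr2 read 6228.5 (library 1) and 6203 (library 3) under the null GFP+ label, 878 under het GFP+ and 1142 under null GFP-. Against het GFP+ its log2 difference was 2.96 (adjusted p = 0.0125 from limma), and that of Egr3 was 2.30 (adjusted p = 0.0225 from limma). Fos, Egr1, Junb and Dusp1 differed by 0.22, 0.25, 0.11 and 0.18.

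Markers of other cell types differed between these populations. Between null GFP+ and het GFP+, 15 of 15 tested mast cell and neutrophil markers were lower, with a summed intensity of 2315 and 2580 in null GFP+, 99480 in het GFP+ and 99590 in null GFP-. Macrophage and dendritic cell markers were lower in 7 of 12, endothelial markers higher in 8 of 12 and adipocyte markers higher in 5 of 9. Adipose progenitor and stromal markers summed to 185400 and 211800 in null GFP+, 247000 in het GFP+ and 258000 in null GFP-, and 1 of 11 was lower in null GFP+ against het GFP+. The part of these cells in the members' values was not tested.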

How the data were processed

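RNA of sorted adipose cells was measured on 4 arrays. Linear intensities were deposited by the authors after normalization between arrays; the sources used here do not name the method. Ranked values of the arrays lay within 0.380% of their mean. Detection p-values were deposited in a second table, whose column names match no sample's label, so the filter took them without a library assignment and its 4 signal columns were left out. Background was removed with normexp (limma 3.58.1, R 4.3.3) using the ranks of intensities and detection p-values (background mean 108, standard deviation 13.6). An offset of 16, log2 and quantile normalization followed. Of 45281 probes, 34885 had 1 symbol in the platform annotation, 18 several and 10378 none. Against RefSeq, 34807 symbols were looked up by their gene identifiers (GRCm38.p6) and 0 changed.

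Probes detected (p under 0.01) on 1 array or more, 17379 in all, were fitted in limma (lmFit, eBayes; 3 groups, 1 residual and 4.03 prior degrees of freedom), two-sided, with Benjamini-Hochberg adjustment over all probes, and tested on simulated data. The het GFP+ and null GFP- libraries were assumed to vary like the null GFP+ libraries. Named members were those called, the 6 largest differences each way in both null GFP+ comparisons, the 10 brightest, and Hsf2. Members and lists were chosen with earlier results of these data known. Hspa5, Hsp90aa1, Hspb6, Fos, Egr1, Junb, Dusp1 and J-domain genes outside that rule were added for their roles after their values were seen. Alternatives covered background, offset, normalization, filter, variance, test, probe choice and libraries.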

Additional observations from a re-analysis of the deposited data

How the results depend on the processing

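Counts of members at an adjusted p under 0.05 depended on the background correction and variance model. Against null GFP-, 1 member was higher (Hspb1) and 1 lower (Hspa12b) on the authors' values, with normexp without detection p-values at an offset of 50, and with a trended variance, and 1 was lower (Hspa4l) with gene means over probes. Of all genes, 2.07% to 2.34% were then higher and 3.64% to 4.07% lower, against 1.31% and 2.66% in the reported fit. Against het GFP+, 1 was higher (Hspa4) with gene means, where 2.15% of all genes were. That setting tests fewer features. The other causes were not tested. By the study's threshold against het GFP+, 0 members were higher and 0 lower on the authors' values, with normexp without detection p-values and with an offset of 50, 0 higher and 1 lower with detection on all 4 arrays, and 0 lower by the methods' t-test. Against null GFP-, 1 was lower under each of these settings and 0 were higher by the t-test. At that threshold 0.992% to 3.81% of all genes were higher and 1.89% to 4.8% lower against het GFP+ under these settings, and 3.87% to 5.15% lower against null GFP- apart from the t-test (2.04% lower, 1.06% higher). Larger offsets shrink differences of dim probes by construction, and stricter detection removes members.

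Leaving out either null GFP+ library leaves 1 library a group and no test. The members' median then ranged from 0.0156 to 0.11 against het GFP+ and from 0.0191 to 0.0851 against null GFP-. With gene means, differences against het GFP+ changed sign for Hspa8 (-0.037) and Hspd1 (-0.012), and against null GFP- for Dnajc19 (-0.30), Hspa1a (0.47), Hspa8 (0.041) and Hspb8 (-0.044), none of them called. No paired analysis was possible because null GFP+ and null GFP- share only the number 3. Both libraries numbered 3 read above the others on the brightest Hspa1a probe. They read below the others for Dnajb1 and Hspb8, and on the dimmest tested probes of Hspa8, Hspd1 and Dnajb6. Hspa1b, Hspa9 and Hspb1 did not split by number on their brightest probes. How many members did so was not counted, and a part of the shared number was not tested. The no-filter alternative kept the same member probes. Signal near background limits Hspa4, Hspa4l, Hspb2, Dnaja1, Dnajb13 and Dnajc1. Hspa5 and Hsf2 were above the detection signal in every library but read at most 210.3 and 205.5. The number of arrays limits every value.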
